A study of Mus musculus with 6 samples.

Results

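The 26 genes described here encode the machinery of GABA synapses. They were chosen by name, as the rows of the normalized count table whose gene identifiers carry the listed symbols in the GENCODE M21 annotation. All 26 were found among the 18254 genes of the table, and all 26 were among the 16714 genes that averaged 5 or more normalized counts across the 6 libraries and were tested. They comprise 6 genes of GABA synthesis, transport and breakdown, 9 listed subunits of GABA-A receptors, 3 partners of these receptors, 2 subunits of the GABA-B receptor, 4 genes of the postsynaptic scaffold and its adhesion proteins, and 2 chloride transporters.

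RNA from the medial prefrontal cortex (mPFC) of male mice aged 10 to 12 weeks was sequenced in 6 libraries, 3 from EGFP-*Shank3* transgenic (TG) mice and 3 from wild-type (WT) mice, all on a C57BL/6J background. The TG mice overexpress Shank3, a scaffold protein of excitatory synapses, tagged with a green fluorescent protein, and the promoter behind the transgene is not given in the sources used here. Each library pooled the mPFC of 2 mice of 1 genotype, and these pools are the replicates. The comparison of TG with WT asked which RNA levels of the mPFC differ when this excitatory scaffold is in excess, and it is given here for the inhibitory synapse.

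*Shank3* itself was taken first as a check of the labels. It stood at 17470, 19004 and 16310 normalized counts in TG-1 to TG-3 and at 8374, 8173 and 6791 in WT-1 to WT-3, with no overlap (log2 fold change 1.18, SE 0.10, limma adjusted *p* = 0.0643, and adjusted *p* = 0.000437 with the replicate number as a block). Normalized counts are estimated reads divided by a factor for each library's depth, and they summed to between 28363967 and 29447717 per library. Markers of the labelled tissue were present, since 12 of 12 excitatory and 19 of 20 inhibitory neuron markers were in the table and none of these was at 0 in any library. Some libraries stood apart from others of their genotype. The libraries numbered 3 deviated together in both genotypes (correlation of their deviations across genes 0.62). TG-2 held 720 normalized counts of *Cdhr1*, a cadherin of the olfactory bulb, against 39 to 100 in the other 5 libraries. Between the genotypes, markers of mature oligodendrocytes summed to between 43278 and 56162 normalized counts in the TG libraries and to between 62629 and 73147 in the WT libraries.

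GABA is the main inhibitory transmitter of the adult cortex. It is made from glutamate by a pair of decarboxylases and packed into vesicles, and after release it opens GABA-A receptors, which are chloride channels built of several subunits, or activates GABA-B receptors, which act through G proteins. Whether an open GABA-A channel inhibits its cell depends on the chloride that transporters leave inside, and gephyrin and neuroligin-2 hold these receptors at the synapse. In tissue RNA, fewer cells of a type and less RNA per cell cannot be told apart.

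The RNA levels of the GABA synapse genes lay close together in the 2 genotypes. The count of genes with a limma adjusted *p* under 0.05 was 0 of the 26, beside 0 of all 16714 genes tested (0.0%). This fit was strict, since *Shank3* itself had a limma adjusted *p* of 0.0643. Its test statistics had 0.731 of the width of a standard normal. The study did call genes in these libraries, with a count model and an empirical null, so the absence of calls here is also a limit of this fit. At an unadjusted *p* under 0.05 there was 1 gene, the chloride importer *Slc12a2*, which makes 3.85% of the 26 beside 2.01% of all genes tested (336 genes). A model that also held the replicate number, as a block, called 0 of the 26 and 0.00598% of all genes (1 gene, *Shank3*). At an unadjusted *p* under 0.05 that model held *Slc12a2* alone among the 26, where it held 4.98% of all genes (833 genes). An empirical null, in which the test statistics are rescaled to the width of a standard normal, called 0 of the 26 and 0.156% of all genes (26 genes).

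The log2 fold change of TG over WT was above 0 for 15 of the 26 genes and below 0 for 11. Its median was 0.036, beside -0.0037 over all genes tested. The values ranged from -0.24 for *Slc12a2* to 0.13 for the GABA transporter *Slc6a11*, and for 22 of the 26 their size was under 0.1. The median size was 0.041 for these genes and 0.071 for all genes tested. The 95% intervals of all 26 genes lay between -0.49 and 0.48 on the log2 scale, or between 0.711-fold and 1.39-fold, and 25 of the 26 included 0. Their half-widths ran from 0.15 to 0.37, and from 0.12 to 0.22 with the block. The median standard error was 0.091 without and 0.061 with the block.

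**Figure D1:**
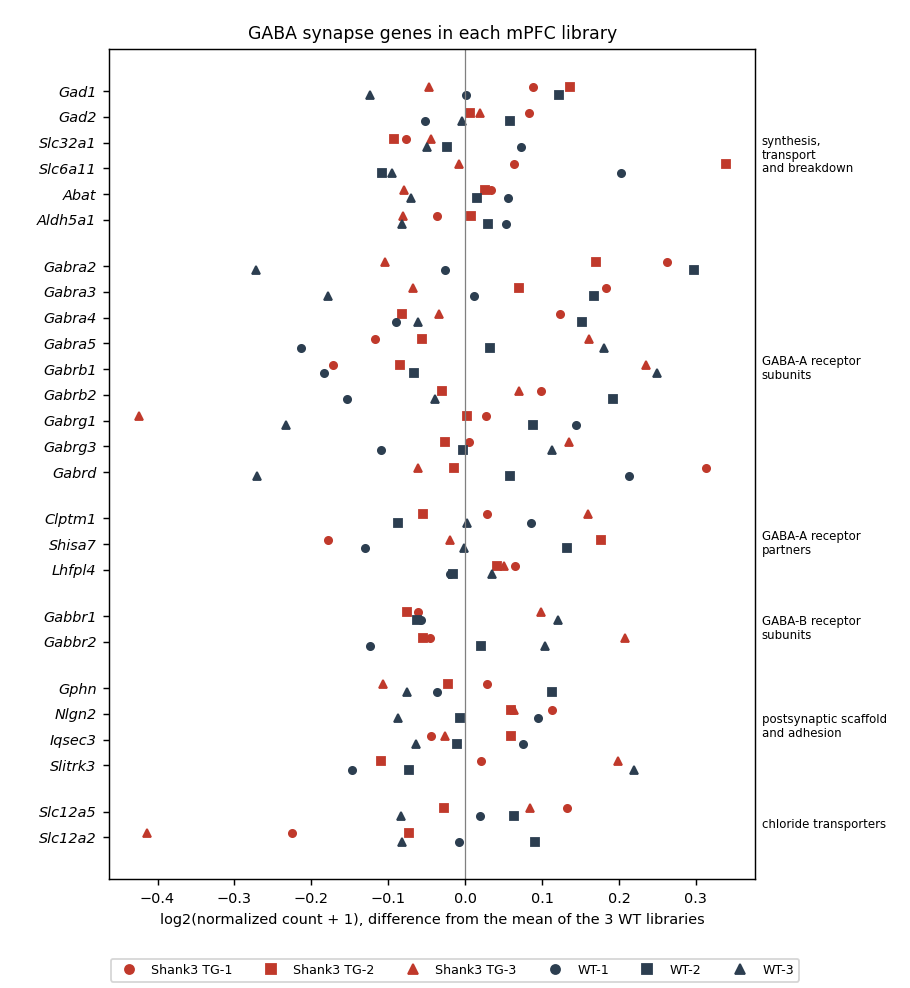
Each symbol is 1 library, placed by its log2(normalized count + 1) minus the mean of the 3 WT libraries, with TG in red, WT in dark blue and the replicate number as the shape. TG and WT symbols overlap for 25 of the 26 genes, and the triangles of the libraries numbered 3 lie on the same side for many of them.

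The TG libraries all stood on one side of the WT libraries for 1 of the 26 genes (3.85%), *Lhfpl4*, beside 6.02% of all genes tested (1007 genes). The difference had the same sign at each of the 3 replicate numbers for 6 of the 26 (23.1%), beside 24.8% of all genes tested. These were *Gad1*, *Lhfpl4* and *Nlgn2*, higher in TG, and *Gabrg1*, *Gabbr1* and *Slc12a2*, lower in TG. Both shares lay near those of all genes.

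**Figure D2:**
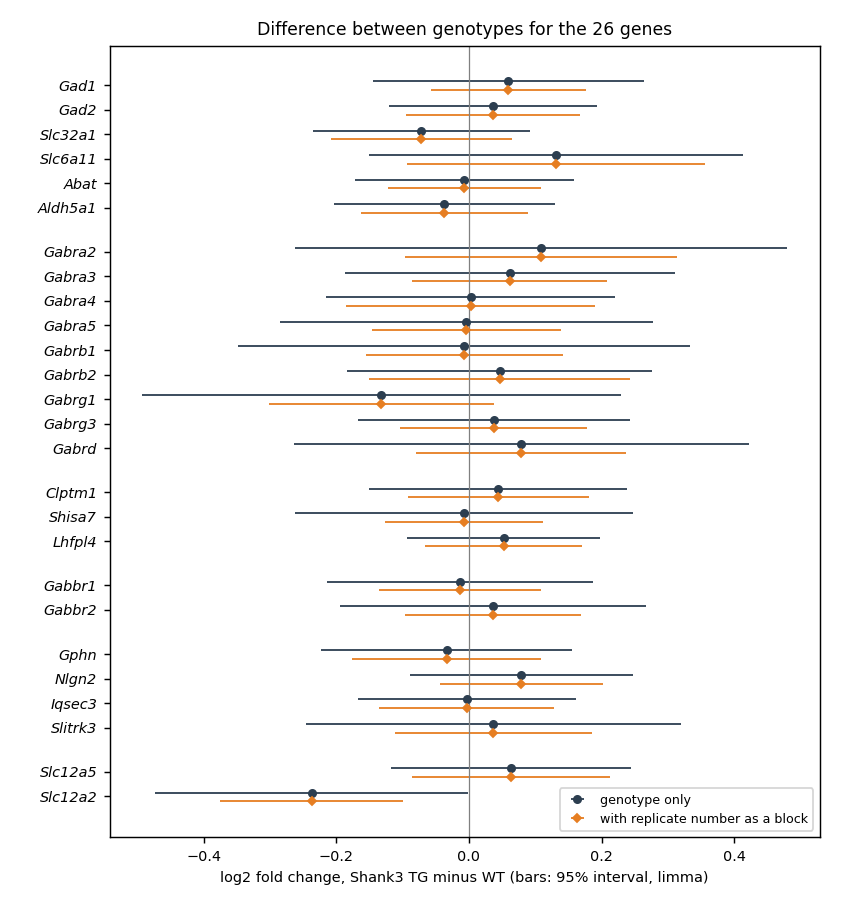
Points are the log2 fold change of TG over WT for the 26 genes in limma, and bars are 95% intervals, from the model with the genotype alone (circles) and from the blocked model (diamonds). The interval excludes 0 for *Slc12a2* alone, at the bottom of the plot.

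Genes that make, load, clear and break down GABA came to similar levels in TG and WT. *Gad1* encodes the decarboxylase GAD67, which is found throughout the cell. It stood at 7607, 7868 and 6929 normalized counts in TG-1 to TG-3 and at 7164, 7788 and 6569 in WT-1 to WT-3. TG-3 and WT-3 were the lowest of their groups and the groups overlapped, with means of 7468 ± 485 and 7174 ± 609 (SD, n = 3 each) and a log2 fold change of 0.059 (SE 0.088). *Gad2*, which encodes the terminal form GAD65, stood at 4015, 3807 and 3840 in TG and at 3654, 3944 and 3778 in WT (log2 fold change 0.036, SE 0.067). The log2 ratio of *Gad1* to *Gad2* was 0.94 ± 0.099 in TG and 0.92 ± 0.10 in WT (SD, n = 3 each), a difference of 0.023 (exact two-sided permutation test, *p* = 0.8).

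*Slc32a1* encodes VGAT, the transporter that fills vesicles with GABA. It stood at 1755, 1735 and 1795 normalized counts in TG-1 to TG-3 and at 1947, 1822 and 1789 in WT-1 to WT-3. The highest TG library passed only the lowest WT library, and the log2 fold change was -0.072 (SE 0.071). *Slc6a11*, the GABA transporter of astrocytes known as GAT3, stood at 3989, 4830 and 3796 in TG and at 4395, 3544 and 3575 in WT (log2 fold change 0.13, SE 0.12). TG-2 was the highest library here and also the one with the most olfactory bulb RNA, and without TG-2 the log2 fold change was 0.027. The part of olfactory bulb RNA in the difference was not tested.

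GABA is broken down by a transaminase, *Abat*, and by succinic semialdehyde dehydrogenase, *Aldh5a1*. *Abat* stood at 6026, 5997 and 5571 normalized counts in TG-1 to TG-3 and at 6121, 5953 and 5607 in WT-1 to WT-3. *Aldh5a1* stood at 2362, 2435 and 2291 in TG and at 2514, 2474 and 2289 in WT. For both enzymes the libraries numbered 3 were below the other 4, and the log2 fold changes were -0.0071 (SE 0.071) and -0.037 (SE 0.072). Over the 6 genes of synthesis, transport and breakdown 3 were higher and 3 lower in TG, with a median of 0.014.

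The 9 listed subunits of GABA-A receptors likewise showed no call, with 6 higher and 3 lower in TG and log2 fold changes from -0.13 to 0.11. The alpha subunits set where a receptor goes and how it responds to benzodiazepines. *Gabra2* encodes a subunit of synapses on the cell body and axon, and it stood at 933, 875 and 723 normalized counts in TG-1 to TG-3 and at 764, 956 and 644 in WT-1 to WT-3. *Gabra3* stood at 5868, 5422 and 4927 in TG and at 5205, 5800 and 4567 in WT. Both genes were lowest in the libraries numbered 3 of either genotype, and their log2 fold changes of 0.11 (SE 0.16) and 0.062 (SE 0.11) were under the spread between libraries.

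*Gabra4* and *Gabrd* encode subunits that meet in receptors outside the synapse, which carry a lasting current. *Gabra4* stood at 3351, 2906 and 3006 normalized counts in TG-1 to TG-3 and at 2890, 3418 and 2950 in WT-1 to WT-3, with the order of the numbers 1 and 2 turned around between the genotypes (log2 fold change 0.0024, SE 0.094). *Gabrd* stood at 2012, 1604 and 1553 in TG and at 1877, 1687 and 1343 in WT (log2 fold change 0.079, SE 0.15). *Gabra5*, also known from receptors outside the synapse, stood at 1520, 1586 and 1843 in TG and at 1422, 1686 and 1869 in WT (log2 fold change -0.0038, SE 0.12). *Gabrd* was lowest and *Gabra5* highest in the libraries numbered 3 of both genotypes, which differed from the others by more than the genotypes did.

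The beta subunits carry part of the GABA binding site. *Gabrb1* stood at 771, 820 and 1023 normalized counts in TG-1 to TG-3 and at 765, 830 and 1034 in WT-1 to WT-3, so that libraries of the same number differed by -0.018 to 0.011 on the log2 scale while those numbered 3 were the highest. *Gabrb2* stood at 4128, 3778 and 4049 in TG and at 3467, 4406 and 3753 in WT. The log2 fold changes were -0.0074 (SE 0.15) and 0.046 (SE 0.099).

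Gamma subunits take part in holding receptors at synapses. *Gabrg1* stood at 614, 604 and 449 normalized counts in TG-1 to TG-3 and at 667, 641 and 513 in WT-1 to WT-3. Each TG library was below the WT library of its number, with differences of -0.12, -0.086 and -0.19 on the log2 scale, but the groups overlapped (log2 fold change -0.13, SE 0.16, limma adjusted *p* = 1.00 without and 0.996 with the block). Without TG-3 alone the log2 fold change of *Gabrg1* was 0.014, in the other direction. Without both libraries of number 1, 2 or 3 it was -0.14, -0.15 and -0.10. *Gabrg3* stood at 1337, 1308 and 1463 in TG and at 1235, 1329 and 1441 in WT (log2 fold change 0.037, SE 0.088).

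*Gabrg1*, *Gabra2*, *Gabra4* and *Gabrb1* are neighbours on mouse chromosome 5 (GRCm38), where *Gabrg1* spans chr5:70751047-70842617, *Gabra2* chr5:70957597-71095849 and *Gabra4* chr5:71569749-71658308, all on the minus strand, and *Gabrb1* spans chr5:71658113-72149037 on the plus strand. *Gabra4* and *Gabrb1* overlap at their 5′ ends, and whether reads were assigned by strand is not given in the sources used here, so their levels are uncertain by that overlap. The neighbours *Gabrg1* and *Gabra2* were both lowest in the libraries numbered 3, and *Gabrb1* was highest there. The 250 bases before the RefSeq start of the first pair (GRCm38.p6, minus strand, outside the exons of GENCODE M21) are shown because both genes lay lowest in those libraries, with each CG dinucleotide in capitals. They are chr5:70842618-70842867 for *Gabrg1* and chr5:71095850-71096099 for *Gabra2*.
Gabrg1: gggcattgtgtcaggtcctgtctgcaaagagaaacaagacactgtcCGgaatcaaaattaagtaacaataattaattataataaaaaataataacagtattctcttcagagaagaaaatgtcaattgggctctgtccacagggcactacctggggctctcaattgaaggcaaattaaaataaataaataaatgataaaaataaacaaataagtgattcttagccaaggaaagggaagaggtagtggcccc
Gabra2: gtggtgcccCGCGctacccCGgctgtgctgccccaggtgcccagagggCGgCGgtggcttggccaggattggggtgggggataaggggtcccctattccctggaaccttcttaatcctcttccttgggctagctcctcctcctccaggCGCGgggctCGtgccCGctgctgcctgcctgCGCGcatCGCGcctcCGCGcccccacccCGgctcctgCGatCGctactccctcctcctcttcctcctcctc
The window of *Gabrg1* holds 1 CG and that of *Gabra2* holds 18. CG reads the same on either strand, 92.1% of the 32851 RefSeq windows of this length hold at least 1, and the median is 6. As few as *Gabrg1* were found in 18.8% of windows and as many as *Gabra2* in 21.7%. These counts describe the letters of the windows alone.

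Of the 3 receptor partners, *Clptm1* encodes a protein that holds GABA-A receptors back in the endoplasmic reticulum. It stood at 3913, 3694 and 4286 normalized counts in TG-1 to TG-3 and at 4072, 3611 and 3842 in WT-1 to WT-3 (log2 fold change 0.044, SE 0.084). *Shisa7*, an auxiliary subunit of GABA-A receptors, stood at 4837, 6182 and 5400 in TG and at 4999, 5999 and 5465 in WT, and number 1 was the lowest and number 2 the highest in both genotypes (log2 fold change -0.0071, SE 0.11). *Lhfpl4* links GABA-A receptors to neuroligin-2, and it stood at 3881, 3820 and 3846 in TG and at 3662, 3673 and 3804 in WT. Its groups did not overlap, by the gap between TG-2 at 3820 and WT-3 at 3804. The means were 3849 ± 30.8 and 3713 ± 79.4 (SD, n = 3 each), and the log2 fold change was 0.052 (SE 0.063, limma adjusted *p* = 1.00).

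The GABA-B receptor is a pair of *Gabbr1*, which binds GABA, and *Gabbr2*, which couples to the G protein. *Gabbr1* stood at 20929, 20717 and 23372 normalized counts in TG-1 to TG-3 and at 20981, 20906 and 23734 in WT-1 to WT-3. *Gabbr2* stood at 11898, 11825 and 14185 in TG and at 11268, 12453 and 13202 in WT. Both subunits were highest in the libraries numbered 3 of both genotypes, and their log2 fold changes were -0.013 (SE 0.086) and 0.036 (SE 0.099). The difference of *Gabbr1* was below 0 at each number, at -0.0036, -0.013 and -0.022.

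Among the 4 genes of the postsynaptic scaffold and its adhesion proteins, gephyrin, *Gphn*, forms the lattice under the receptors. It stood at 1869, 1804 and 1702 normalized counts in TG-1 to TG-3 and at 1786, 1982 and 1738 in WT-1 to WT-3 (log2 fold change -0.034, SE 0.082). *Nlgn2* encodes neuroligin-2, the adhesion protein of inhibitory synapses, and it stood at 10153, 9786 and 9811 in TG and at 10019, 9347 and 8833 in WT. Each TG library of *Nlgn2* was above the WT library of its number, the groups overlapped through WT-1, and the means were 9917 ± 205 and 9399 ± 595 (SD, n = 3 each; log2 fold change 0.079, SE 0.073, limma adjusted *p* = 1.00).

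*Iqsec3* encodes an exchange factor that binds gephyrin. It stood at 6072, 6526 and 6146 normalized counts in TG-1 to TG-3 and at 6593, 6211 and 5990 in WT-1 to WT-3 (log2 fold change -0.0034, SE 0.071). *Slitrk3* encodes an adhesion protein that organizes inhibitory synapses from the postsynaptic side, and it stood at 1665, 1521 and 1884 in TG and at 1483, 1560 and 1911 in WT (log2 fold change 0.037, SE 0.12). The libraries numbered 3 were the highest of each genotype for *Slitrk3*.

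The chloride transporters gave the lowest unadjusted *p* among the 26 genes. *Slc12a5* encodes KCC2, which carries chloride out of mature neurons, and *Slc12a2* encodes NKCC1, which carries it in and is also expressed by glia and by choroid plexus. *Slc12a5* stood at 20896, 18707 and 20213 normalized counts in TG-1 to TG-3 and at 19321, 19925 and 17994 in WT-1 to WT-3. The groups overlapped, and the log2 fold change was 0.063 (SE 0.078).

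*Slc12a2* stood at 1802, 2001 and 1580 normalized counts in TG-1 to TG-3 and at 2094, 2242 and 1989 in WT-1 to WT-3. Each TG library was below the WT library of its number, with differences of -0.22, -0.16 and -0.33 on the log2 scale, and the groups overlapped only because TG-2 lay above WT-3. The means were 1794 ± 210 and 2108 ± 127 (SD, n = 3 each). The log2 fold change was -0.24, or 0.848-fold on that scale (SE 0.10, 95% interval -0.47 to -0.00097), with an unadjusted limma *p* of 0.0493 and an adjusted *p* of 1.00. With the block the unadjusted *p* was 0.00388 and the adjusted *p* 0.568, and with the empirical null the adjusted *p* was 0.365. Without TG-3 the log2 fold change was -0.15, and without both libraries numbered 3 it was -0.19. All 10 listed markers of mature oligodendrocytes had lower means in TG, and the median of the 10 log2 fold changes was -0.43. Of the 10, 9 had an unadjusted limma *p* under 0.05, beside 2.01% of all genes tested. The empirical null called 3 of the 10 at an adjusted *p* under 0.05, beside 0.156% of all genes. The 7 choroid plexus markers summed to 191 to 606 normalized counts in TG and to 143 to 304 in WT. *Ttr*, the transthyretin of that epithelium, made 445 of the sum in TG-3, and without *Ttr* the sums were 149 to 168 in TG and 130 to 263 in WT. The part of either cell type in the difference of *Slc12a2* was not tested.

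The ratio of the exporter to the importer separated the genotypes in these libraries. The linear ratio of *Slc12a5* to *Slc12a2* was 11.6, 9.35 and 12.8 in TG-1 to TG-3 and 9.22, 8.88 and 9.04 in WT-1 to WT-3. The WT libraries lay close together, all TG libraries were above them, and TG-2 was the nearest. On the log2 scale the ratio was 3.48 ± 0.23 in TG and 3.18 ± 0.027 in WT (SD, n = 3 each), a difference of 0.30 or 1.23-fold. The exact two-sided permutation test gave *p* = 0.1, which is the smallest that 3 against 3 allows, and *p* = 0.2 after Benjamini-Hochberg adjustment over the 2 ratios tested. By replicate number the difference was 0.33, 0.073 and 0.50, and an exact sign-flip test gave *p* = 0.25, again the smallest it allows. Without TG-2 the difference was 0.43 and without TG-3 it was 0.20. This is a ratio in tissue RNA, and *Slc12a2* is also expressed by glia and by choroid plexus, so the ratio within neurons is not given. The part of the cell types in the difference was not tested.

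**Figure D3:**
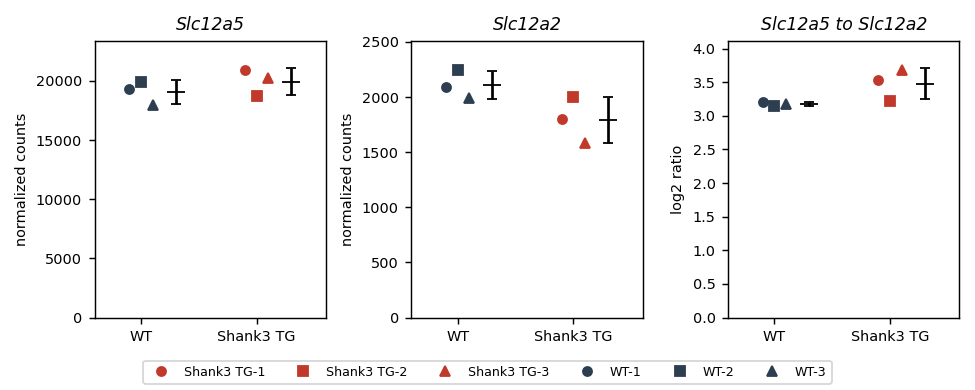
Normalized counts of *Slc12a5* (left) and *Slc12a2* (middle) and the log2 ratio of the 2 (right) in each library, with the replicate number as the shape and bars at the mean ± SD of 3 libraries. *Slc12a5* overlaps between the genotypes, *Slc12a2* overlaps by TG-2 and WT-3 alone, and the TG ratios of 3.22 to 3.68 lie above the WT ratios of 3.15 to 3.21.

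Other genes of the GABA pathway gave a similar picture. Of a list of 50 further genes for receptor subunits, transporters, trafficking, GABA-B auxiliaries, adhesion and chloride balance, 46 were tested, and 0 had an adjusted *p* under 0.05 by limma with or without the block. There were 26 higher and 20 lower in TG, with log2 fold changes from -0.22 to 0.48 and a median of 0.0065. At an unadjusted *p* under 0.05 there was 1 gene of the 46 (2.17%, beside 2.01% of all genes tested), *Slc6a13*, which encodes GAT2, a GABA transporter best known from the meninges. It stood at 326, 371 and 216 normalized counts in TG-1 to TG-3 and at 243, 201 and 197 in WT-1 to WT-3 (log2 fold change 0.48, SE 0.20, unadjusted *p* = 0.0485, limma adjusted *p* = 1.00). TG-3 lay below WT-1, TG-2 was the highest, and without TG-2 the log2 fold change was 0.32.

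With the block, 5 of the 46 had an unadjusted *p* under 0.05 (10.9%, beside 4.98% of all genes in that model), 4 higher and 1 lower in TG. Beside *Slc6a13* they were *Hap1*, *Kctd12* and *Slc12a7*, higher, and *Ptprd*, lower, all named after their values were seen. *Kctd12*, an auxiliary subunit of GABA-B receptors, stood at 2353, 2590 and 1800 in TG-1 to TG-3 and at 2078, 2153 and 1482 in WT-1 to WT-3. Each TG library was above the WT library of its number while the libraries numbered 3 were the lowest of both genotypes (log2 fold change 0.24, limma adjusted *p* = 1.00 without and 0.491 with the block). The groups did not overlap for 3 of the 46 genes (6.52%, beside 6.02% of all genes tested), *Hap1* and *Wnk3* with TG above and *Ubqln1* with TG below, also named after their values were seen. *Hap1* encodes a trafficking partner of GABA-A receptors and stood at 2579, 3232 and 2480 in TG and at 2417, 2230 and 2282 in WT (log2 fold change 0.25, SE 0.11, limma adjusted *p* = 1.00). TG-2, the library with the most olfactory bulb RNA, was the highest, and without it the log2 fold change of *Hap1* was 0.13. The part of that RNA in the difference was not tested.

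Markers of the cells that make or receive GABA gave no adjusted call. The 19 inhibitory neuron markers summed to 16135 to 17120 normalized counts in TG and 16066 to 16736 in WT, with 10 higher and 9 lower in TG, a median difference of 0.023 on the log2 scale and 0 at an unadjusted *p* under 0.05 in limma. With the block 2 of the 19 were, where that model held 4.98% of all genes, *Npy* with a higher and *Prox1* with a lower mean in TG, the latter named after its values were seen. Among the most abundant, *Sst* encodes somatostatin and stood at 3919, 4311 and 5168 in TG-1 to TG-3 and at 4532, 3910 and 4698 in WT-1 to WT-3 (log2 fold change 0.023, SE 0.12). The 12 excitatory neuron markers had a median of 0.044 and summed to 207092 to 268266 in TG and 201985 to 263306 in WT. The groups did not overlap for 1 of the 12, *Slc17a7*, beside 6.02% of all genes tested. It stood at 42302, 42776 and 45669 in TG-1 to TG-3 and at 39218, 40002 and 39794 in WT-1 to WT-3 (log2 fold change 0.13, SE 0.072). The 10 astrocyte markers had a median of -0.016 and summed to 132529 to 148907 in TG and 136118 to 156099 in WT. Both neuronal sums thus overlapped between the genotypes. The 8 striatal neuron markers had a median of -0.0029 and the 8 markers of the olfactory bulb and neuroblasts one of 0.35, with sums of 3160 to 5153 in TG and 3155 to 3284 in WT. Without TG-2, an alternative chosen after seeing the data, the latter median was -0.27, with 3 markers higher and 5 lower in TG.

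The libraries numbered 3 stood apart from the others in many of the GABA synapse genes, and in many of all genes tested. Both libraries numbered 3 were above the other 4 libraries for 6 of the 26 genes (23.1%), beside 20.3% of all genes tested, and below them for 8 of the 26 (30.8%), beside 20.6% of all genes. The 6 genes above were *Gabra5*, *Gabrb1*, *Gabrg3*, *Gabbr1*, *Gabbr2* and *Slitrk3*. The 8 below were *Gad1*, *Abat*, *Aldh5a1*, *Gabra2*, *Gabra3*, *Gabrg1*, *Gabrd* and *Gphn*. These shares are descriptions of 6 libraries, without a test.

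The difference of the libraries numbered 3 from the other 4, averaged over the genotypes, was largest downward for *Gabrg1*, at -0.39 on the log2 scale, followed by *Gabra2* at -0.36, *Gabrd* at -0.31 and *Gabra3* at -0.23. It was largest upward for *Gabrb1* at 0.37, followed by *Slitrk3* at 0.29, *Gabra5* at 0.26 and *Gabbr2* at 0.21. Receptor subunits therefore stood at both ends. Its median size was 0.13 over the 26 genes and 0.17 over all genes tested, and it had the same sign in both genotypes for 22 of the 26 (84.6%), beside 72.2% of all genes. For 19 of the 26 (73.1%) it was larger than the difference between genotypes, beside 72.3% of all genes. Across the 26 genes, which share these 6 libraries, Pearson's r with the GC content of the transcript was 0.15 (GC content 35.3% to 61.9%), beside 0.0092 over all 16681 genes with a known transcript. With the log2 transcript length it was 0.34, beside -0.018 over all genes, and 0.041 without *Gabrb1* and *Gabrg3*, the longest transcripts.

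**Figure D4:**
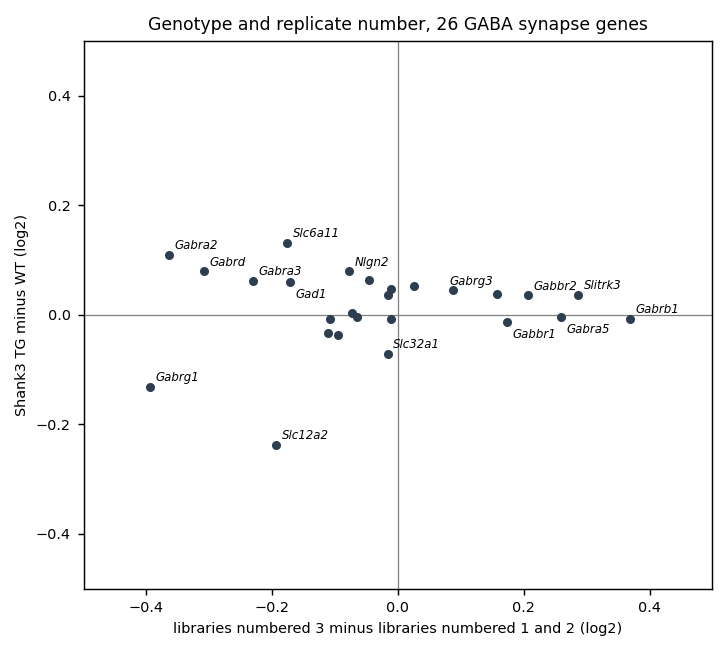
Each point is 1 of the 26 genes, with the log2 difference of the libraries numbered 3 from those numbered 1 and 2 on the horizontal axis and the log2 difference of TG from WT on the vertical axis, at the same scale. The points spread from -0.39 to 0.37 along the horizontal axis and from -0.24 to 0.13 along the vertical one, with *Slc12a2* lowest.

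Per kilobase of the principal transcript, the levels of the 26 genes in WT spanned from 4168 ± 307 normalized counts per kilobase for *Gabbr1* to 63.8 ± 10.2 for *Gabrb1* (SD, n = 3 each). After *Gabbr1* came *Slc12a5* at 3165, *Gabbr2* at 2140 and *Gad1* at 2138, and *Gabbr2* and *Gad1* did not differ beyond their spread on this length. *Gad1* thus stood above *Gad2* at 660 and *Slc32a1* at 662. Of the 9 listed GABA-A subunits *Gabra3* was the highest at 1418, followed by *Gabrb2* at 972, *Gabrd* at 851, *Gabra4* at 751 and *Gabra5* at 621, and *Gabrg3* at 137, *Gabra2* at 135 and *Gabrg1* at 127 lay close together near the bottom. *Slc12a5* stood above *Slc12a2* at 323 in every library. With the merged length of all annotated exons in place of 1 transcript, chosen after seeing the data, *Gad1* came to 939 ± 79.8 and stood below *Gabbr2* at 1841 ± 146 (SD, n = 3 each), *Nlgn2* at 1625 and *Gabra3* at 1323. *Slc12a2* came to 193, and *Gabra5* at 558 passed *Gabra4* at 507, so that the order of the levels depends on the length used.

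**Figure D5:**
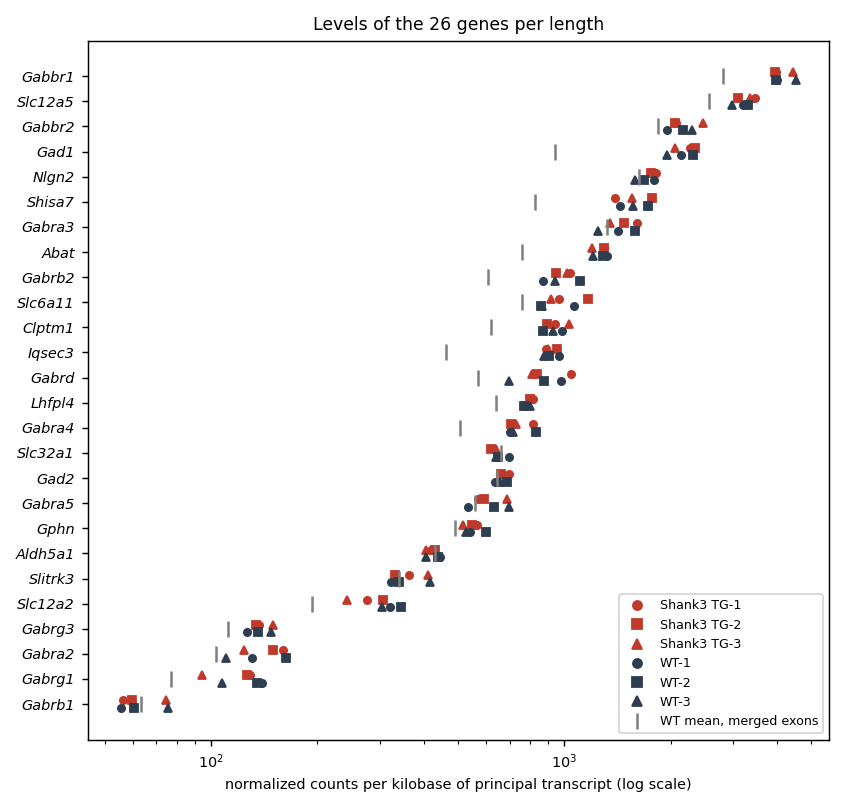
Normalized counts per kilobase of the principal transcript on a log axis, with 1 symbol per library and genes ordered by the WT mean; grey ticks are the WT mean per kilobase of merged exons. The libraries of a gene lie close together beside the range between genes, from 63.8 for *Gabrb1* to 4168 for *Gabbr1* in WT.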

How the data were processed

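RNA sequencing of the mPFC was taken up from the table the authors deposited, for 3 *Shank3* TG and 3 WT libraries. The authors made stranded mRNA libraries, estimated transcript abundance with Salmon (v0.9.1) on GRCm38 with GC bias correction, summed it to genes in R (v3.6.0) and scaled the counts to each library's size factor with DESeq2 (v1.19.11). The deposited values are this signal, normalized read counts that are not whole, so no counting interval was computed. The library totals after normalization, 28363967 to 29447717, do not give the depth in reads, and precision was taken from the spread between libraries.

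Gene names and positions came from GENCODE M21 (GRCm38), which held 18215 of the 18254 genes. Genes that averaged 5 or more normalized counts were tested in R (v4.3.3) with limma (v3.58.1) on log2(normalized count + 1), with the genotype alone (lmFit, eBayes with a mean-variance trend), two-sided, with Benjamini-Hochberg adjustment over 16714 genes and a threshold of 0.05. Fold changes are on the scale with a pseudocount of 1. Ratios were compared by exact permutation tests (scipy 1.17.1).

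The replicate numbers of the labels were checked as a pairing. Deviations of the libraries from the mean of their genotype correlated at 0.30, 0.33 and 0.62 between libraries of the same number, 1 to 3. Crossings of the numbers 1 and 2 gave 0.27 and 0.23, close to the first 2 values, and crossings with number 3 gave -0.44 to -0.39. The check thus set the libraries numbered 3 apart, and it did not settle whether the numbers 1 and 2 pair the samples. The replicate number was entered as a block in a further fit with this limit. By the study's methods the WT mice were littermates of the TG mice and the RNA samples came as pairs, but whether a number marks a pair or a litter is not stated. The *p*-values measure the spread between these pools.

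The 26 genes and all other lists were chosen with earlier results of these data known. Named in the text are the 26 genes, *Shank3*, the further GABA pathway genes with an adjusted, or else an unadjusted, *p* under 0.05, and at most the 3 most abundant genes of a cell type list; others are marked as named after their values were seen. The alternatives tried were a pseudocount of 0.1 or of 5, all genes without the filter or a mean of 50 or more, quantile normalization, a shared upper quartile, the block, an empirical null, and libraries or numbered pairs left out. Upstream sequences came from RefSeq (GRCm38.p6), where 23 of the 26 genes were matched. Proteins were not analysed here.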

Additional observations from a re-analysis of the deposited data

How the results depend on the processing

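Every alternative left the count of the 26 genes with an adjusted *p* under 0.05 at 0, and the smallest adjusted *p* of any of them was 0.365 (*Slc12a2*, empirical null). The replicate block, in which the replicate number enters as a term, raised the count over all genes from 0 to 1 and the empirical null raised it to 26, with 0 to 1 when libraries were left out. At an unadjusted *p* under 0.05 the count over all genes was 833 with the block, 1215 with the empirical null and 198 to 468 with libraries left out. Among the 26 it was 0 when genes averaging under 50 normalized counts were dropped, 0 with a shared upper quartile and 0 to 1 with libraries left out, of which only leaving out TG-2 or WT-3 kept it at 1. For the 46 further pathway genes it was 5 with the block, 5 with the empirical null and 0 to 3 with libraries left out. With an adjusted *p* the block changed no other call. At an unadjusted *p* under 0.05 it also raised the counts of inhibitory neuron markers from 0 to 2, of excitatory neuron markers from 0 to 1, of olfactory bulb markers from 0 to 1, of choroid plexus markers from 1 to 2 and of oligodendrocyte markers from 9 to 10. The genes without overlap numbered 2 with quantile normalization (7.69%, beside 6.12% of all genes) and 1 to 5 with libraries left out, the 5 (19.2%) without WT-3, where 15.8% of all genes had none; leaving a library out raises that share to between 11.1% and 15.9% of all genes.

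The median log2 fold change of the 26 ranged from -0.014, without WT-1, to 0.050, without the libraries numbered 2. The *Slc12a5* to *Slc12a2* difference kept its direction, at 0.20 to 0.43, and the *Gad1* to *Gad2* difference ranged from -0.036 to 0.068. Of 442 values of the 26 genes under 17 alternatives, 55 had the opposite sign, and the largest main size among those genes was 0.13. Other than by leaving libraries out these were *Gabra5* at 0.0047 with quantile normalization and 0.0010 with a shared upper quartile, *Gabrb1* at 0.0025 with quantile normalization, and *Iqsec3* at 0.0014 with a shared upper quartile. With libraries left out the ranges were *Gad1* -0.0024 to 0.12, *Gad2* -0.014 to 0.080, *Slc6a11* -0.027 to 0.27, *Abat* -0.043 to 0.029, *Gabra2* -0.027 to 0.26, *Gabra3* -0.027 to 0.15, *Gabra4* -0.10 to 0.12, *Gabra5* -0.11 to 0.087, *Gabrb1* -0.13 to 0.12, *Gabrb2* -0.056 to 0.18, *Gabrg1* -0.25 to 0.014, *Gabrg3* -0.017 to 0.094, *Gabrd* -0.056 to 0.19, *Clptm1* -0.013 to 0.095, *Shisa7* -0.099 to 0.078, *Gabbr1* -0.068 to 0.047, *Gabbr2* -0.050 to 0.091, *Gphn* -0.083 to 0.023, *Iqsec3* -0.041 to 0.054 and *Slitrk3* -0.045 to 0.15. The cause was not tested. The other 6 genes, *Slc32a1*, *Aldh5a1*, *Lhfpl4*, *Nlgn2*, *Slc12a5* and *Slc12a2*, kept their sign under all 17. With libraries left out *Slc12a2* lay between -0.32 and -0.15, *Slc32a1* between -0.11 and -0.033, *Aldh5a1* between -0.078 and -0.011, *Lhfpl4* between 0.036 and 0.070, *Nlgn2* between 0.035 and 0.13, and *Slc12a5* between 0.011 and 0.14. Of single libraries, for example, leaving out TG-1 took *Slc12a5* to 0.029, leaving out WT-1 took *Slc32a1* to -0.035, *Aldh5a1* to -0.011 and *Nlgn2* to 0.13, and leaving out WT-3 took *Nlgn2* to 0.035, *Slc12a5* to 0.022 and *Aldh5a1* to -0.078. The number of pools, 3 of each genotype, limits the precision.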
